A study of Homo sapiens with 8 samples.

Results

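The serine tRNAs were followed as crosslink targets of the human dihydrouridine synthases DUS2L and DUS1L. Their members were taken by name: every tRNA reference in the crosslink tables whose name gives serine, read on the sense strand. This gave 4 isoacceptors (tRNA-Ser-AGA, tRNA-Ser-CGA, tRNA-Ser-GCT and tRNA-Ser-TGA) of 55 families, 17 references of 254, and 681 of 16258 sense crosslink sites, where a family is an amino acid with its anticodon or an rRNA species and a site is 1 position of 1 reference. The 17 references stand for 22 genes, since 6 genes share the reference called tRNA-Ser-AGA-2 here. All 22 genes matched a RefSeq symbol on GRCh38, where 16 lie on chromosome 6 and 21 are 82 nt long.

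The data are iCLIP libraries, in which ultraviolet light joins a protein to RNA, the protein is purified with the RNA it holds, and the crosslinked nucleotides are counted by sequencing. The cells were Flp-In T-Rex 293, an established human embryonic kidney line with a site for inserting a transgene that tetracycline switches on. They carried a transgene for 3xFLAG-tagged DUS2L or DUS1L, so the tagged enzyme was produced from the inserted gene. There were 4 groups of 2 libraries: DUS2L with 5-ClUrd, DUS2L untreated, DUS1L with 5-ClUrd and DUS1L untreated. All 4 groups received 1 µg/mL tetracycline for 12 h and again with the change of medium, and the treated groups received 100 µM 5-ClUrd with it for a further 12 h. The labels do not say whether the libraries of a group came from separate cultures, so each p-value measures the spread between these libraries, which may be technical. The tables count rRNA and tRNA, and so hold no level of the transgene by which a library's enzyme label could be checked. No library from cells without a tagged enzyme was used here, so no background of the purification is subtracted.

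Serine tRNAs bring serine to the UCN codons and to AGC and AGU. Like leucine and selenocysteine tRNAs they belong to the type II tRNAs, which have a long variable arm between the anticodon stem and the T stem. Dihydrouridine is a uridine reduced by an enzyme of the DUS family and lies mostly in the D loop, near the 5' part of the tRNA. 5-ClUrd is 5-chlorouridine; once it stands in a tRNA at a uridine that a DUS enzyme modifies, the enzyme can become bound to it covalently. In yeast, Dus1 and Dus2 modify different uridines of the D loop, those of Dus1 lying further 5'. Serine tRNAs are also known for a dimethylated guanosine at the hinge between the D stem and the anticodon stem, a methylated cytidine in the anticodon loop and a methylated adenosine in the T loop.

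The 8 libraries held between 7369 and 824657 sense counts. One library stood apart: the untreated DUS1L replicate 2 held 7369 sense counts and 170 serine counts, against 144322 and 696 in the untreated DUS1L replicate 1. The next smallest library, untreated DUS2L replicate 1, had 130011 sense counts and 13633 serine counts. Counts at single sites reached a common upper range. The highest serine site held between 1015 and 1173 counts in the treated libraries, where 10 to 16 serine sites held between 900 and 1100. In the untreated DUS2L libraries the highest serine site held 950 and 1160 counts, and in the untreated DUS1L libraries 108 and 22. Sites above 500 counts carried 59.7% and 60.1% of serine counts in the treated DUS2L libraries, 27.5% and 31.2% in the untreated DUS2L libraries, 52.8% and 55.3% in the treated DUS1L libraries and 0% in the untreated DUS1L libraries. The part of this upper range in the differences below was not tested, except where a value without those sites is given.

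In DUS2L cells the summed share of serine tRNAs overlapped between treated and untreated libraries, while the balance among the isoacceptors differed. They held 11.2% and 9.49% of sense counts with 5-ClUrd, against 10.5% and 11.6% in untreated DUS2L cells. In DUS1L cells they held 5.95% and 6.87% of sense counts with 5-ClUrd, against 0.482% and 2.31% in untreated DUS1L cells, and the groups did not overlap. With 2 libraries in each group an exact two-sided permutation test cannot go below p = 0.333, so these sums carry no test that could pass a threshold of 0.05. In a bulk count, a change in the share of one tRNA can come from that tRNA or from the others that share the library, and the table cannot tell these apart.

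**Figure D1:**
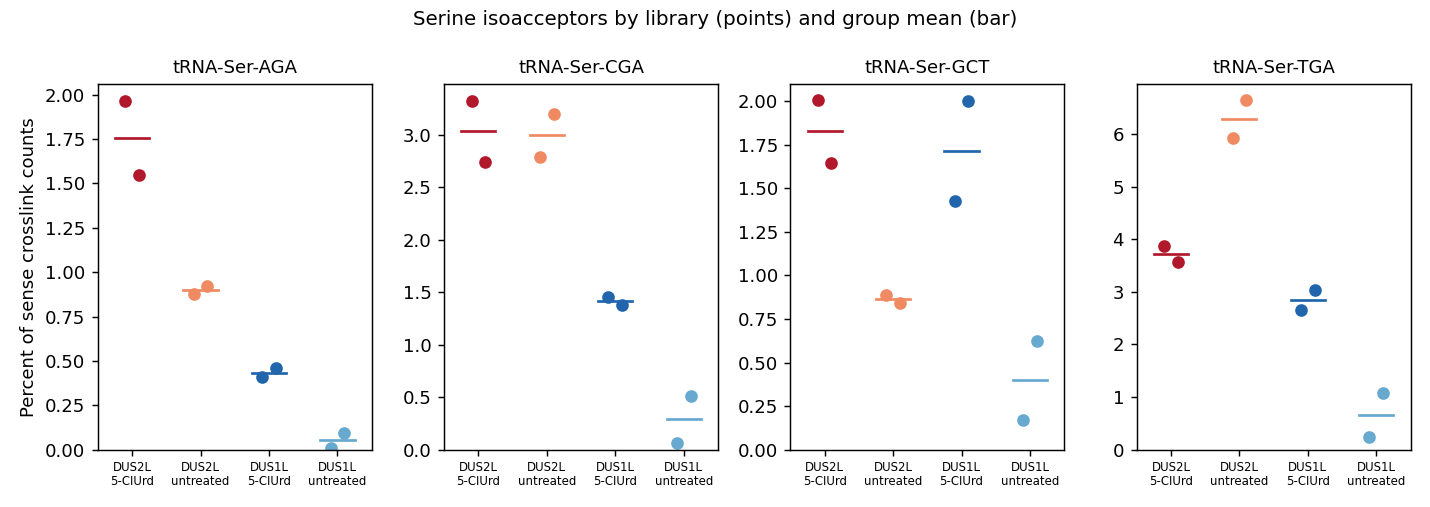
Share of all sense crosslink counts (percent, vertical axis, a separate scale in each panel) held by each serine isoacceptor in the 8 libraries (points), with the mean of each group of 2 libraries as a bar. In DUS2L cells tRNA-Ser-AGA and tRNA-Ser-GCT sit higher with 5-ClUrd and tRNA-Ser-TGA sits lower, while in DUS1L cells both treated libraries sit above both untreated libraries in all 4 panels.

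The isoacceptors moved in opposite directions in DUS2L cells. With 5-ClUrd, tRNA-Ser-AGA and tRNA-Ser-GCT were higher, tRNA-Ser-TGA was lower, and tRNA-Ser-CGA did not pass the test (quasi-likelihood test of edgeR, p adjusted over 55 families by Benjamini and Hochberg, 2 treated against 2 untreated libraries). So 3 of 4 serine isoacceptors passed, where 76.4% of all families passed, 52.7% higher and 23.6% lower. The median log2 fold change was 0.49 over the serine isoacceptors and 0.86 over all families. tRNA-Ser-AGA held 1.96% and 1.55% of sense counts in treated DUS2L cells, against 0.878% and 0.924% in untreated DUS2L cells. Both treated libraries were above both untreated ones, as were those of 60% of families, while 29.1% were below. The log2 fold change was 0.96 ± 0.22 (SE), with an adjusted p of 0.00621 in edgeR. tRNA-Ser-GCT, which reads AGC and AGU, held 2.01% and 1.65% in treated DUS2L cells, against 0.887% and 0.840% in untreated DUS2L cells. The groups did not overlap, and the log2 fold change was 1.08 ± 0.21 (adjusted p = 0.00348, edgeR).

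tRNA-Ser-TGA held 3.88% and 3.56% of sense counts in treated DUS2L cells, against 5.93% and 6.64% in untreated DUS2L cells. Both treated libraries were below both untreated ones, with a log2 fold change of -0.76 ± 0.20 (adjusted p = 0.0130, edgeR). tRNA-Ser-CGA held 3.32% and 2.74% in treated DUS2L cells, against 2.79% and 3.20% in untreated DUS2L cells. These groups overlapped, with a log2 fold change of 0.02 ± 0.22 (adjusted p = 0.938, edgeR). The calls for tRNA-Ser-AGA and tRNA-Ser-GCT depended on the scaling. With TMM factors the median log2 difference of all families was 0.21, 19 families were called higher and 21 lower (29 and 13 above), no serine isoacceptor was called higher, and tRNA-Ser-CGA and tRNA-Ser-TGA were called lower. No serine isoacceptor was called without untreated DUS2L replicate 1, without untreated DUS2L replicate 2, or in 1 fit of all 8 libraries.

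Taken within the serine tRNAs, where the library total cancels, a similar balance appeared. These shares add up to the whole, so a lower share of tRNA-Ser-TGA raises the others, and they are no separate support. tRNA-Ser-TGA made up 36.1% ± 1.97 of serine counts in treated DUS2L cells and 56.9% ± 0.468 in untreated DUS2L cells (SD, n = 2 each). tRNA-Ser-AGA made up 16.9% ± 0.914 in treated DUS2L cells and 8.17% ± 0.286 in untreated DUS2L cells. tRNA-Ser-GCT made up 17.7% ± 0.452 in treated DUS2L cells and 7.85% ± 0.858 in untreated DUS2L cells. tRNA-Ser-CGA, whose share of sense counts overlapped, made up 29.3% ± 0.603 in treated DUS2L cells and 27.1% ± 0.677 in untreated DUS2L cells. The groups did not overlap for these isoacceptors, and the exact permutation p of 0.333 is the smallest this design can give. In DUS1L cells tRNA-Ser-AGA made up 6.79% ± 0.187 of serine counts with 5-ClUrd and 2.99% ± 1.59 in untreated cells, without overlap. tRNA-Ser-TGA made up 44.5% ± 0.339 of serine counts in treated DUS1L cells and 48.0% ± 2.19 in untreated DUS1L cells, and tRNA-Ser-GCT made up 26.5% ± 3.66 in treated DUS1L cells and 31.2% ± 5.86 in untreated DUS1L cells.

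Within an isoacceptor the references did not move together in DUS2L cells. Each reference was fitted on its own, over 230 references and rRNA species, after the isoacceptor values had been seen. Of 17 serine references 8 were higher and 3 were lower with 5-ClUrd (edgeR), where 48.7% of all those tested were higher and 12.2% were lower. The 3 lower ones were tRNA-Ser-TGA-1-1, tRNA-Ser-CGA-3-1 and tRNA-Ser-CGA-2-1. Reads of near-identical tRNA genes can be split among their references by the counting, so values of single references are uncertain in that respect.

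Of the 4 references of tRNA-Ser-TGA, 1 was called lower. tRNA-Ser-TGA-1-1 (TRS-TGA1-1, chr10:67764503-67764584, GRCh38) held 1.80% and 1.99% of sense counts in treated DUS2L cells, against 4.49% and 5.00% in untreated DUS2L cells. It was lower in both treated libraries, with a log2 fold change of -1.32 ± 0.31 (adjusted p = 6.58e-05, edgeR), and without sites above 500 counts its value was -1.51 ± 0.42 (adjusted p = 0.00122, edgeR). tRNA-Ser-TGA-3-1 was higher, with 0.534% and 0.411% in treated DUS2L cells, against 0.238% and 0.214% in untreated DUS2L cells (log2 1.06 ± 0.33, adjusted p = 0.00320, edgeR). This call was lost with TMM factors (0.082) and its direction turned with DESeq2 (-0.013). tRNA-Ser-TGA-2-1 and tRNA-Ser-TGA-4-1 did not pass the test, at log2 -0.07 ± 0.31 and 0.13 ± 0.30.

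The references of tRNA-Ser-CGA differed in direction, and their sum lay near 0. tRNA-Ser-CGA-3-1 held 0.688% and 0.646% in treated DUS2L cells, against 1.45% and 1.56% in untreated DUS2L cells (log2 -1.18 ± 0.30, adjusted p = 0.000349, edgeR). tRNA-Ser-CGA-2-1, the least crosslinked reference of this isoacceptor in DUS2L cells, fell as well, with 0.0599% and 0.0270% in treated DUS2L cells, against 0.133% and 0.167% in untreated DUS2L cells. tRNA-Ser-CGA-4-1 (TRS-CGA4-1, chr12:56190364-56190445, GRCh38) was higher, with 1.60% and 1.44% in treated DUS2L cells, against 0.702% and 0.827% in untreated DUS2L cells (log2 0.99 ± 0.30, adjusted p = 0.00250, edgeR). The call for tRNA-Ser-CGA-4-1 was lost with TMM factors (0.0052) and its direction turned with DESeq2 (-0.087). tRNA-Ser-CGA-1-1 did not pass, at log2 0.48 ± 0.31. The treated and untreated libraries did not overlap for the 3 references that passed. The share of all references that lay apart was not counted, and over families it was 60% higher and 29.1% lower.

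**Figure D2:**
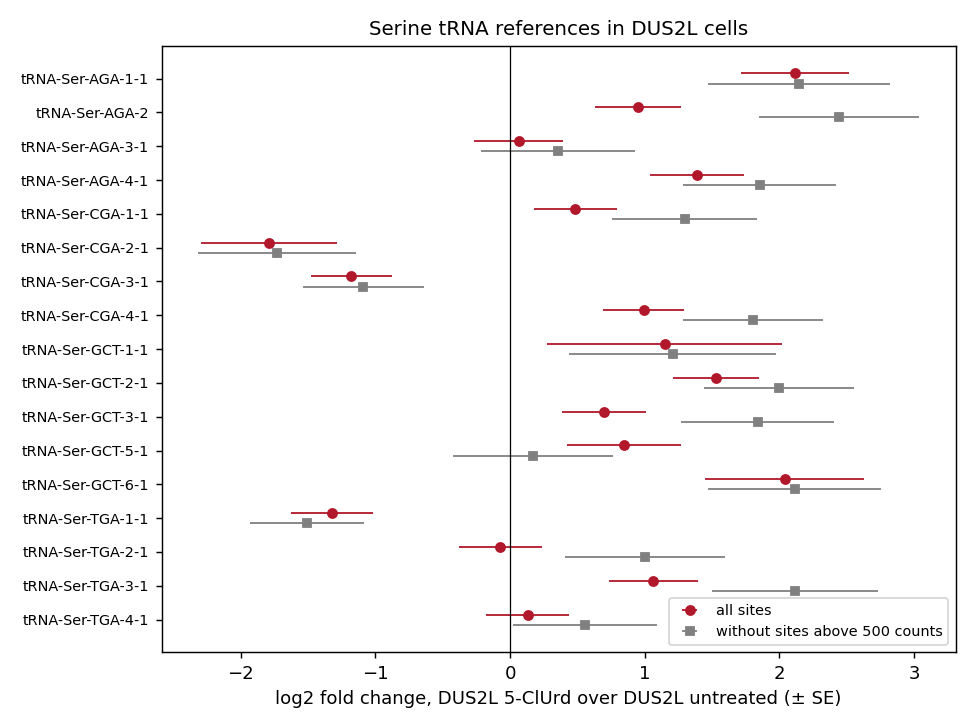
Log2 fold change of each of the 17 serine references, treated over untreated DUS2L libraries (horizontal axis, with bars of 1 SE), from all sites (circles) and without sites above 500 counts in any library (squares). tRNA-Ser-TGA-1-1, tRNA-Ser-CGA-2-1 and tRNA-Ser-CGA-3-1 lie below 0 in both settings, and the references of tRNA-Ser-AGA lie above 0 in both.

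Among the other references, 3 of 4 of tRNA-Ser-AGA were higher with 5-ClUrd in DUS2L cells, with log2 fold changes of 2.12 ± 0.40 for tRNA-Ser-AGA-1-1, 1.39 ± 0.35 for tRNA-Ser-AGA-4-1 and 0.95 ± 0.32 for tRNA-Ser-AGA-2. tRNA-Ser-AGA-3-1 had 0.06 ± 0.33 and did not pass. Of tRNA-Ser-GCT, references 2-1, 3-1 and 6-1 were higher, at 1.53 ± 0.32, 0.70 ± 0.31 and 2.04 ± 0.59, while 1-1 and 5-1 did not pass. With TMM factors 1 serine reference was called higher and 6 lower, with 54 and 57 of all references (112 and 28 above), and leaving out 1 untreated DUS2L library left 3 or 4 calls.

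In DUS1L cells every serine isoacceptor had more counts with 5-ClUrd, but with a wide spread between the untreated libraries. None of the 4 passed the test (edgeR, adjusted over 53 families), where 24.5% of all families passed, 22.6% higher and 1.89% lower. Their median log2 fold change was 2.29, against 1.35 over all families. The treated and untreated libraries did not overlap for 4 of 4, higher with 5-ClUrd, where 62.3% of families lay apart in this direction and 13.2% in the other. At an unadjusted p under 0.05, 3 of 4 would have passed, as would 25 of all 53 families. TMM factors and DESeq2 also called 0 of 4, but the values depended on the scaling. Of all families 12 were called higher and 1 lower as reported, 2 and 8 with TMM factors, and 1 and 10 with DESeq2. The serine log2 values ran from 1.15 for tRNA-Ser-GCT to 2.64 for tRNA-Ser-AGA with TMM factors. With DESeq2 they ran from 1.01 to 2.30 for the same isoacceptors.

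tRNA-Ser-AGA held 0.412% and 0.457% of sense counts in treated DUS1L cells, against 0.00901% and 0.0950% in untreated DUS1L cells. The untreated values rest on 13 and 7 counts, and the log2 fold change was 3.67 ± 1.28 (adjusted p = 0.0641, edgeR). tRNA-Ser-TGA held 2.66% and 3.04% in treated DUS1L cells, against 0.239% and 1.07% in untreated DUS1L cells (log2 2.16 ± 0.82, adjusted p = 0.0788, edgeR). tRNA-Ser-CGA held 1.46% and 1.38% in treated DUS1L cells, against 0.0637% and 0.516% in untreated DUS1L cells (log2 2.40 ± 1.08, adjusted p = 0.129, edgeR). tRNA-Ser-GCT held 1.42% and 2.00% in treated DUS1L cells, against 0.170% and 0.624% in untreated DUS1L cells (log2 2.17 ± 0.85, adjusted p = 0.0884, edgeR). For each isoacceptor the larger of both untreated shares was that of the shallow library. With 1 DUS1L library left out at a time, the log2 fold change ranged from 2.19 to 5.59 for tRNA-Ser-AGA and from 1.46 to 4.47 for tRNA-Ser-CGA. It ranged from 1.46 to 3.33 for tRNA-Ser-GCT and from 1.41 to 3.57 for tRNA-Ser-TGA. In 1 fit of all 8 libraries all 4 were called, but the count over all families in that fit is not given here.

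Fitted one reference at a time, 14 of 17 serine references were higher with 5-ClUrd in DUS1L cells (edgeR, 228 features), where 32.9% of all those tested were higher and 4.82% lower. That count was 0 when either treated library was left out and 0 without sites above 500 counts, and TMM factors gave 5. The references not called were tRNA-Ser-GCT-5-1, tRNA-Ser-TGA-2-1 and tRNA-Ser-TGA-3-1. tRNA-Ser-GCT-6-1 had 57 and 52 counts in treated DUS1L cells and was at 0 in both untreated DUS1L libraries.

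The 5-ClUrd difference of tRNA-Ser-TGA was smaller in DUS2L than in DUS1L cells by 2.96 ± 0.85 on the log2 scale, a difference of -2.96 with an adjusted p of 0.0318 for the interaction of enzyme and treatment in edgeR over all 8 libraries. It was the 1 serine isoacceptor of 4 to pass, where 29.1% of all families passed, 10.9% higher and 18.2% lower. The same difference was -3.24 ± 1.16 for tRNA-Ser-AGA (adjusted p = 0.0697), -2.51 ± 1.13 for tRNA-Ser-CGA (adjusted p = 0.120) and -1.15 ± 0.81 for tRNA-Ser-GCT (adjusted p = 0.261). The call for tRNA-Ser-TGA was lost when any 1 of the 4 DUS2L libraries or of the 2 treated DUS1L libraries was left out, with adjusted p of up to 0.118. TMM factors called all 4 lower, but the count over all families in that setting is not given here.

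Set against each other, the treated DUS2L and DUS1L cells differed among the serine isoacceptors in tRNA-Ser-AGA. It held 1.96% and 1.55% of sense counts in treated DUS2L cells, against 0.412% and 0.457% in treated DUS1L cells, a log2 difference of 2.01 ± 0.69 (adjusted p = 0.0333, edgeR, all 8 libraries in the fit). So 1 of 4 passed, where 65.5% of families passed, 38.2% higher and 27.3% lower in DUS2L. The call was lost when any 1 of the 4 treated libraries was left out. tRNA-Ser-CGA was 1.10 ± 0.76 and tRNA-Ser-TGA 0.38 ± 0.58 higher in treated DUS2L cells, and tRNA-Ser-GCT 0.09 ± 0.56, none of which passed.

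At the level of references, 5 of 17 were higher and 1 was lower in treated DUS2L than in treated DUS1L cells, where 29.9% of all those tested were higher and 34.4% lower. tRNA-Ser-AGA-4-1 held 0.345% and 0.506% in treated DUS2L cells, against 0.0226% and 0.0170% in treated DUS1L cells (log2 4.43 ± 0.64, adjusted p = 8.1e-06, edgeR). tRNA-Ser-CGA-3-1 held 0.688% and 0.646% in treated DUS2L cells, against 0.0421% and 0.0546% in treated DUS1L cells (log2 3.79 ± 0.51, adjusted p = 3.3e-06, edgeR). The one lower reference was tRNA-Ser-GCT-1-1, with 0.0175% and 0.0220% in treated DUS2L cells, against 0.0684% and 0.142% in treated DUS1L cells (log2 -2.41 ± 0.68, adjusted p = 0.00461, edgeR).

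Without 5-ClUrd, 3 of 4 serine isoacceptors were higher in DUS2L than in DUS1L cells, where 89.1% of families passed, 47.3% higher and 41.8% lower. The log2 differences were 5.25 ± 0.96 for tRNA-Ser-AGA, 3.61 ± 0.89 for tRNA-Ser-CGA and 3.35 ± 0.65 for tRNA-Ser-TGA, with adjusted p of 0.00132, 0.00539 and 0.00169 in edgeR. tRNA-Ser-GCT was at 1.24 ± 0.60 and did not pass (adjusted p = 0.0815). In untreated DUS2L libraries the order of the isoacceptors was tRNA-Ser-TGA, tRNA-Ser-CGA, then tRNA-Ser-AGA and tRNA-Ser-GCT, whose libraries overlapped. In untreated DUS1L libraries tRNA-Ser-TGA was highest and tRNA-Ser-AGA lowest.

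Along the molecule, most serine counts fell on a few nucleotides. Positions here count from the first base of each reference and were not aligned to the standard tRNA numbering. Position 26, in the region of the hinge between D stem and anticodon stem, was the highest site in 7 of 8 libraries. It held 32.7% and 35.5% of serine counts in treated DUS2L cells, 33.0% and 30.1% in untreated DUS2L cells, 23.1% and 26.02% in treated DUS1L cells, and 24.3% and 52.9% in untreated DUS1L cells. In the remaining library, untreated DUS1L replicate 1, position 67 was higher.

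Position 32 held 12.6% and 9.97% of serine counts in treated DUS2L cells, against 19.0% and 18.8% in untreated DUS2L cells. In DUS1L cells it held 15.4% and 17.7% with 5-ClUrd, against 21.8% and 4.71% in untreated cells. So both treated DUS2L libraries lay below both untreated ones, while the DUS1L groups overlapped. Position 67, in the 3' part of the molecule, held 6.77% and 10.7% in treated DUS2L cells, against 6.27% and 7.33% in untreated DUS2L cells. In DUS1L cells it held 8.73% and 11.3% with 5-ClUrd, against 31.8% and 25.3% in untreated cells, so that both untreated libraries were far above the treated ones. No serine count lay past position 73 in any library.

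**Figure D3:**
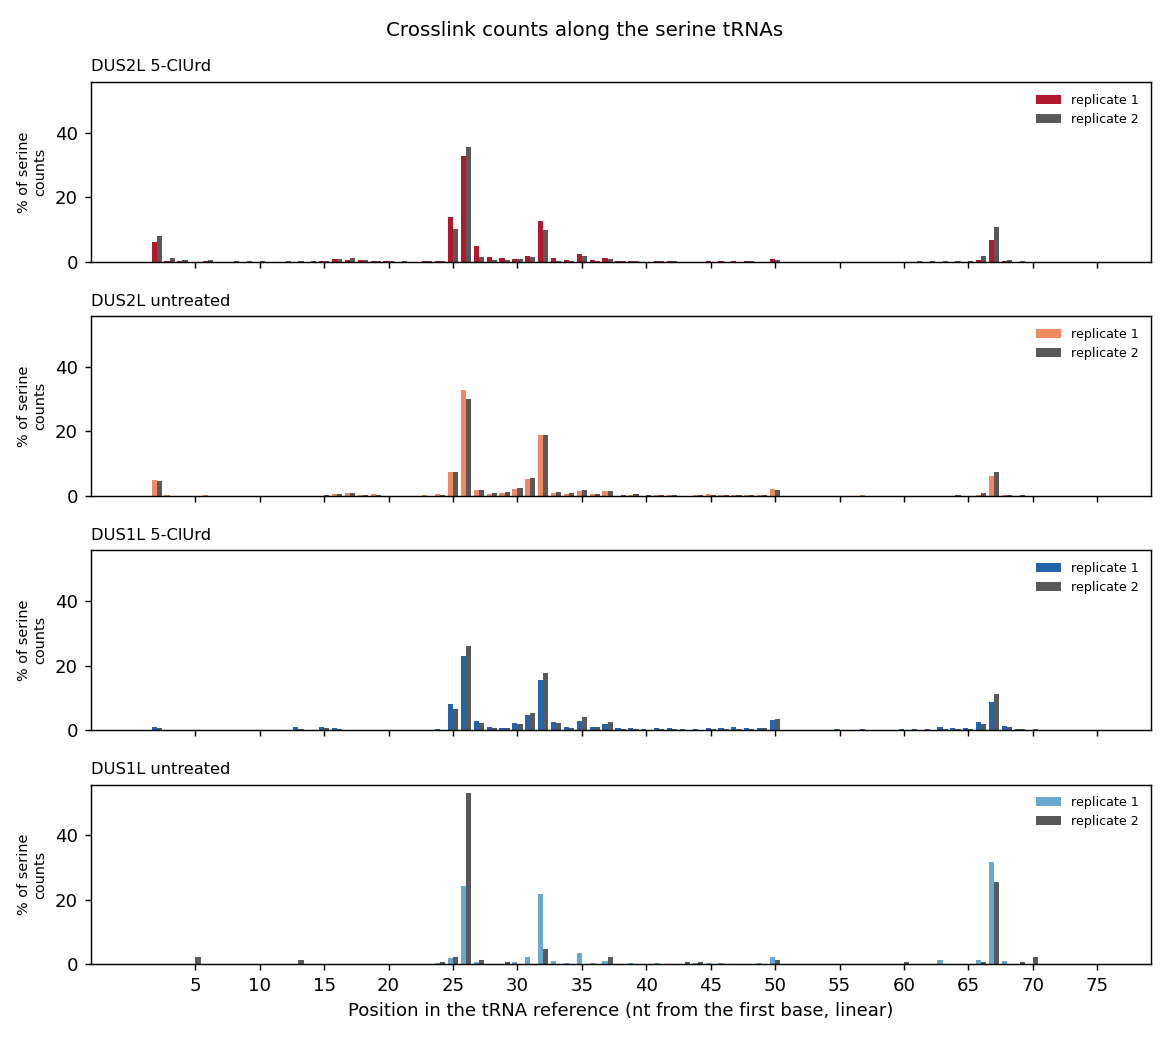
Percent of serine counts (vertical axis) at each position counted from the first base of the reference (horizontal axis, nt), with all serine references added, for the 2 replicates of each group. Positions 26, 32 and 67 stand out in each group, position 2 stands out in DUS2L cells and not in DUS1L cells, and position 67 holds 25.3% and 31.8% in the untreated DUS1L libraries.

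Position 2 separated the enzymes. It held 6.31% and 7.93% of serine counts in treated DUS2L cells, against 0.844% and 0.552% in treated DUS1L cells. Untreated DUS2L cells had 5.11% and 4.75% there. Untreated DUS1L cells had 0 of 696 and 0 of 170 serine counts there, where 3 counts would be a share of 0.431% and 1.76%. Among treated libraries position 2 was higher in DUS2L than in DUS1L for all 4 isoacceptors (edgeR over all sites, each adjusted p at or below 0.000502). The log2 difference was 5.92 ± 1.08 for tRNA-Ser-AGA, 4.73 ± 0.82 for tRNA-Ser-CGA, 3.62 ± 0.93 for tRNA-Ser-GCT and 3.45 ± 0.77 for tRNA-Ser-TGA. Of all sites, 22.9% were higher in this comparison. In treated DUS2L cells 5.93% and 5.66% of tRNA-Ser-GCT counts lay at positions 2 to 9. The reference tRNA-Ser-GCT-6-1, with counts at positions 2 to 8 only, made up 5.799% and 5.64% of tRNA-Ser-GCT counts there. It was itself higher in treated DUS2L cells (log2 3.66 ± 0.72, edgeR). The position 2 value of tRNA-Ser-GCT is therefore no separate support beside the value of that reference. The 5' end separated the enzymes outside serine tRNAs as well. In treated DUS2L cells all other tRNAs had 25.8% and 31.8% of their counts at positions 2 to 9. In treated DUS1L cells they had 7.45% and 8.61% there. Leucine and selenocysteine tRNAs had 8.85% and 13.6% there in treated DUS2L cells, against 5.79% and 3.29% in treated DUS1L cells.

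By region, serine counts in treated DUS2L cells lay 51.2% ± 0.303 in positions 10 to 26, against 34.6% ± 0.162 in treated DUS1L cells (SD, n = 2 each). Positions 27 to 43, around the anticodon arm, held 25.5% ± 7.61 in treated DUS2L cells and 40.2% ± 1.61 in treated DUS1L cells. Positions 44 to 57, which include the variable arm that marks these tRNAs, held 2.16% ± 0.323 in treated DUS2L cells and 7.37% ± 0.849 in treated DUS1L cells. The enzymes' libraries did not overlap in these regions, and the exact permutation p of 0.333 is the smallest possible. The variable-arm region held 4.93% ± 0.721 in untreated DUS2L cells and 3.04% ± 1.80 in untreated DUS1L cells, so the sum was lower with 5-ClUrd in DUS2L cells and higher with it in DUS1L cells. The difference between these directions was not tested, and the isoacceptors did not all share them. In DUS2L cells tRNA-Ser-TGA had 1.501% ± 0.218 of its own counts there with 5-ClUrd and 6.68% ± 0.901 in untreated cells, while tRNA-Ser-CGA had 3.24% ± 0.376 with 5-ClUrd and 2.23% ± 0.463 in untreated cells. In DUS1L cells tRNA-Ser-AGA had 2.02% ± 0.0615 with 5-ClUrd and 3.85% ± 5.44 in untreated cells, which overlapped.

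Site by site, an isoacceptor's counts at 1 position were tested among all families' positions. Over the libraries serine tRNAs had 269 such positions, of which 218 reached 10 counts in the DUS2L libraries. With 5-ClUrd, 40 of these were higher and 18 lower in DUS2L cells (edgeR), where 39.4% of all sites passed, 15.5% higher and 23.8% lower. With TMM factors 63 were higher and 7 lower, with 815 and 611 of all sites (556 and 854 above). The calls were lost when either untreated DUS2L library was left out, since then 0 sites of any family were called, while 85 serine positions, and 1817 of all 3582 sites, had an unadjusted p under 0.05 with all 4 libraries in the fit. Of the 40 higher sites, 12 had no count in untreated DUS2L cells, and all 18 lower sites had at least 10.

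The lower sites belonged to tRNA-Ser-TGA in 16 of 18 cases, and 15 of its 16 lay between positions 29 and 52. At position 32 tRNA-Ser-TGA had 0.599% and 0.436% of sense counts in treated DUS2L cells, against 1.13% and 1.16% in untreated DUS2L cells (log2 -1.15 ± 0.20, adjusted p = 1.2e-06, edgeR). At position 31 it had 0.157% and 0.111% in treated DUS2L cells, against 0.498% and 0.606% in untreated DUS2L cells (log2 -2.04 ± 0.31). At position 50, in the region of the variable arm, it had 0.0175% and 0.0209% in treated DUS2L cells, against 0.185% and 0.190% in untreated DUS2L cells (log2 -3.28 ± 0.54). The groups did not overlap at these positions, but the share of all sites that lay apart was not counted. Over families 29.1% lay apart in this direction. At position 32, 950 and 1160 of the untreated DUS2L counts lay on tRNA-Ser-TGA-1-1, in the upper range of site counts given above. The part of that range in these lower values was not tested. The remaining lower sites were positions 26 and 32 of tRNA-Ser-CGA, at log2 -0.59 ± 0.20 and -0.75 ± 0.24. At position 26 of tRNA-Ser-TGA the value was -0.38 ± 0.17 and at position 67 it was -0.50 ± 0.24, and neither passed.

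The higher sites were spread over tRNA-Ser-CGA with 13, tRNA-Ser-GCT with 13, tRNA-Ser-AGA with 12 and tRNA-Ser-TGA with 2. Position 25, beside the main site, was higher in tRNA-Ser-GCT, with 627 and 370 counts in treated DUS2L cells, against 8 and 7 in untreated DUS2L cells (log2 4.73 ± 0.71, adjusted p = 4.81e-09, edgeR). It was also higher in tRNA-Ser-AGA (log2 2.37 ± 0.44), and did not pass in tRNA-Ser-CGA or tRNA-Ser-TGA. At position 67 tRNA-Ser-CGA had 869 and 1003 counts in treated DUS2L cells, against 55 and 156 in untreated DUS2L cells (log2 1.94 ± 0.43, adjusted p = 0.000131, edgeR). tRNA-Ser-GCT rose there too, at log2 2.21 ± 0.52. For tRNA-Ser-CGA, 10 of the 13 higher positions lay between 59 and 73. Past position 65 its counts came from tRNA-Ser-CGA-4-1 alone. Those of tRNA-Ser-CGA-1-1 ended at position 65 and those of the remaining references at 49. tRNA-Ser-CGA-4-1 made up 48.2% and 52.6% of tRNA-Ser-CGA counts in treated DUS2L cells, against 25.1% and 25.8% in untreated DUS2L cells. These positions are therefore no separate support beside the value of that reference. At position 26, tRNA-Ser-GCT (log2 1.10 ± 0.25) and tRNA-Ser-AGA (log2 0.58 ± 0.20) were higher.

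In DUS1L cells 209 serine positions were tested, 108 were higher with 5-ClUrd and 0 lower (edgeR), where 28.3% of all sites passed, 26.8% higher and 1.5% lower. Of the 209 tested positions, 134 had no count in untreated DUS1L cells and 12 had at least 10 there. A position with no untreated count cannot be called lower. The 0 lower, which DESeq2 also gave, is therefore no support for a common direction. At an unadjusted p under 0.05, 143 positions passed in edgeR, each of them higher, as against 966 of all 2132 sites in either direction. Of the 108 positions, 70 had no count in untreated DUS1L cells and 4 had at least 10 there. Without untreated DUS1L replicate 1 only 4 positions were called, and 34 were called by DESeq2. tRNA-Ser-TGA had 40 of the higher positions, tRNA-Ser-CGA 33, tRNA-Ser-GCT 27 and tRNA-Ser-AGA 8.

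At position 32 tRNA-Ser-AGA had 320 and 362 counts in treated DUS1L cells and 0 in both untreated DUS1L libraries, which is at least 25.2-fold higher when 3 counts are set over the untreated group. tRNA-Ser-TGA had 0.440% and 0.590% of sense counts at position 32 in treated DUS1L cells, against 0.0596% and 0.0136% in untreated DUS1L cells (log2 3.63 ± 1.07, adjusted p = 0.0290, edgeR). Position 32 was also higher in tRNA-Ser-CGA (log2 3.57 ± 1.16, adjusted p = 0.0375). At position 26 no isoacceptor passed, with log2 differences between 0.79 ± 1.10 for tRNA-Ser-TGA and 2.81 ± 1.36 for tRNA-Ser-AGA. At position 67 tRNA-Ser-TGA (0.66 ± 0.99), tRNA-Ser-CGA (0.85 ± 1.17) and tRNA-Ser-GCT (1.46 ± 1.13) did not pass.

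The D loop, where dihydrouridine lies, took a small part of the serine counts. Positions 14 to 21 held 3.16% and 4.41% of serine counts in treated DUS2L cells, against 3.07% and 2.95% in untreated DUS2L cells. In DUS1L cells they held 2.33% and 1.42% with 5-ClUrd, against 1 of 696 and 0 of 170 serine counts in untreated cells. That single count is a share of 0.144% (exact 95% interval 0.00364 to 0.798%), and the exact 95% upper limit for 0 of 170 is 2.15%. These intervals and limits cover counting error only. As a share of sense counts, serine D-loop counts were 185.6 times as high with 5-ClUrd in DUS1L cells (counting interval 33.3 to 7336), from 1673 treated counts and 1 untreated count. In DUS2L cells the ratio was 1.16 (1.08 to 1.25), with 0.353% and 0.419% of sense counts in treated cells, against 0.322% and 0.342% in untreated cells.

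Serine tRNAs differed from other tRNAs in this region. All other tRNAs together had 24.2% and 23.3% of their counts at positions 14 to 21 in treated DUS2L cells, and 20.1% and 19.99% in treated DUS1L cells. The serine share was lower in 8 of 8 libraries, with a mean difference of -17.9 percentage points (exact two-sided paired permutation test, p = 0.00781, adjusted p = 0.0156 over 8 comparisons). It was also lower than that of leucine and selenocysteine tRNAs in 8 of 8 libraries, with a mean difference of -6.26 points (exact permutation p = 0.00781, adjusted p = 0.0156). That difference ran from -17.5 points in untreated DUS1L replicate 1 to -0.594 in treated DUS1L replicate 2. Leucine and selenocysteine tRNAs held 8.92% and 12.1% there in treated DUS2L cells. In treated DUS1L cells they held 3.98% and 2.01%, near the serine share and far below that of all other tRNAs. Positions 25 to 27 were the reverse, higher in serine than in all other tRNAs in 8 of 8 libraries by a mean of 26.2 points (adjusted p = 0.0156, exact permutation), and higher than in leucine and selenocysteine tRNAs in 7 of 8 (adjusted p = 0.125, exact permutation). The 8 libraries belong to 4 groups, while these tests count each library as a separate pair, and positions were not aligned between tRNAs of different length. Positions 25 to 27 hold position 26, the main serine site, so their test describes that site and is no separate support.

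Within the D loop the enzymes differed in position. In treated DUS2L cells the serine counts were highest at positions 16 and 17, with 353 and 364 counts at position 16 and 297 and 409 at position 17. In treated DUS1L cells they were highest at positions 15 and 16, with 472 and 218 counts at position 15 and 372 and 188 at position 16, and only 82 and 27 at position 17. Of the counts at positions 14 to 21, those at 17 to 20 made up 56.4% and 57.6% in treated DUS2L cells, against 16.1% and 14.4% in treated DUS1L cells. The same share was 65.8% and 66.5% in untreated DUS2L cells, so the DUS2L pattern was present without 5-ClUrd.

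In all other tRNAs positions 17 to 20 made up 57.6% and 53.6% of D-loop counts in treated DUS2L cells, against 41.0% and 39.4% in treated DUS1L cells, a smaller gap between the enzymes than in serine tRNAs. Whether the gaps differ was not tested. The exact permutation p for the enzymes in serine tRNAs was 0.333, the smallest possible.

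**Figure D4:**
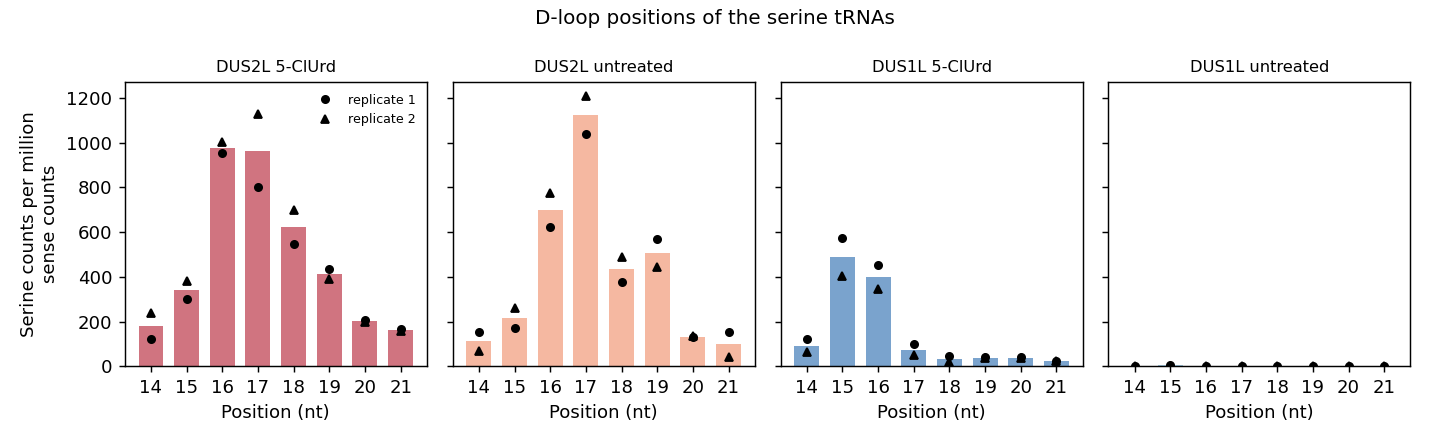
Serine counts at each position scaled to the same number of sense counts in each library (vertical axis) at positions 14 to 21 (horizontal axis, nt from the first base) in each group, with bars for the mean of 2 libraries and a symbol for each replicate. The DUS2L groups are highest at positions 16 and 17, the treated DUS1L group at positions 15 and 16, and the untreated DUS1L group has 1 count in all.

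Site tests were also read by isoacceptor, at D-loop positions chosen after their values had been seen. They describe the difference and are no separate support for it. In treated cells 50 of 248 serine positions were higher and 3 lower in DUS2L than in DUS1L (edgeR), where 41.9% of all sites passed, 22.9% higher and 19% lower. tRNA-Ser-AGA and tRNA-Ser-CGA were higher in DUS2L at all 4 positions from 17 to 20, and tRNA-Ser-TGA at 3 of them. At position 17 tRNA-Ser-CGA had 130 and 230 counts in treated DUS2L cells, against 20 and 11 in treated DUS1L cells (log2 4.44 ± 0.99, adjusted p = 4.6e-05, edgeR). tRNA-Ser-AGA had 55 and 65 counts there in treated DUS2L cells, against 2 and 1 in treated DUS1L cells (log2 5.999 ± 1.21). tRNA-Ser-TGA had 95 and 100 in treated DUS2L cells, against 49 and 14 in treated DUS1L cells (log2 2.62 ± 0.92, adjusted p = 0.0146, edgeR).

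tRNA-Ser-GCT had both of its lower positions at the 5' side. At position 15 it had 9 and 3 counts in treated DUS2L cells, against 138 and 53 in treated DUS1L cells (log2 -2.997 ± 1.03, adjusted p = 0.0116, edgeR). At position 13, just outside the window, it had 2 and 1 counts in treated DUS2L cells, against 111 and 31 in treated DUS1L cells (log2 -4.43 ± 1.21, adjusted p = 0.00106, edgeR). Over positions 14 to 21 it had 79 and 44 counts in treated DUS2L cells, against 259 and 105 in treated DUS1L cells. Of these, positions 17 to 20 made up 50.6% and 65.9% in treated DUS2L cells, against 10.8% and 10.5% in treated DUS1L cells, the same direction as in the serine sum. The remaining lower site was position 50 of tRNA-Ser-TGA, at log2 -1.86 ± 0.80.

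In and just before the D loop, the sites called higher with 5-ClUrd in DUS1L cells were positions 15 and 16 in tRNA-Ser-CGA, tRNA-Ser-GCT and tRNA-Ser-TGA, position 13 in tRNA-Ser-CGA and tRNA-Ser-GCT, and positions 14 and 17 in tRNA-Ser-TGA. tRNA-Ser-TGA had 303 counts at position 16 over both treated DUS1L libraries and 0 in untreated cells, which is at least 11.2-fold higher, and tRNA-Ser-GCT had 191 at position 15 with 0 untreated, at least 7.06-fold higher. tRNA-Ser-AGA had 27 and 13 D-loop counts in treated DUS1L cells, and no D-loop position of it passed. In DUS2L cells tRNA-Ser-AGA was the isoacceptor with D-loop calls at 4 positions, 16 to 19, from 256 and 321 D-loop counts in treated cells, against 9 and 17 in untreated cells. Its ratio per sense count was 9.13 (counting interval 6.17 to 14.1). tRNA-Ser-GCT was called at position 17 alone, and tRNA-Ser-CGA and tRNA-Ser-TGA at no position from 14 to 21.

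The references also differed in how far along them counts were found. Counts on 6 of 17 references ended before position 40, among them tRNA-Ser-AGA-1-1, tRNA-Ser-TGA-2-1 and tRNA-Ser-TGA-3-1 at position 33. Counts on 6 references reached past position 60, with tRNA-Ser-TGA-1-1, tRNA-Ser-CGA-4-1 and tRNA-Ser-GCT-2-1 among them. tRNA-Ser-GCT-6-1, whose gene is 84 nt long, had counts at positions 2 to 8 only. Position 67 lies within the span of counts of 5 references.

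The authors' own peak lists held 98 serine peaks, each 2 to 5 nt long, with the authors' peak scores equal to the summed site counts in all 98. Treated DUS2L libraries had 15 and 20 serine peaks, against 10 and 8 in untreated DUS2L libraries. Treated DUS1L libraries had 22 and 17, against 4 and 2 in untreated DUS1L libraries. Peaks covering position 26 numbered 12 and 11 in treated DUS2L libraries, 9 and 6 in untreated DUS2L libraries, 7 and 3 in treated DUS1L libraries, and 1 and 0 in untreated DUS1L libraries. Position 32 was covered by 1 peak, in treated DUS1L replicate 1, although it was among the 4 highest sites of serine counts in each library. Lists of different depth hold different numbers of peaks, so these counts describe each list.

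Among the type II tRNAs, serine and leucine shares stood in a different balance in the enzymes. Leucine and selenocysteine tRNAs together held 15.1% and 12.0% of sense counts in treated DUS2L cells, against 2.68% and 2.64% in treated DUS1L cells. The ratio of serine to leucine and selenocysteine counts was 0.742 and 0.791 in treated DUS2L cells, against 2.22 and 2.60 in treated DUS1L cells, and the enzymes did not overlap. Of these 6 families 5 were higher in treated DUS2L than in treated DUS1L cells, with log2 differences of up to 6.62 ± 0.43 for tRNA-Leu-AAG, against 1 of 4 serine isoacceptors, and the medians were 4.49 and 0.74. tRNA-Leu-TAA was the exception, at 0.64 ± 0.49. Whether the lists differ was not tested. Of all families 38.2% were higher in this comparison. Without 5-ClUrd 6 of 6 were higher in DUS2L cells, as were 47.3% of all families. With 5-ClUrd 1 of 6 was higher and 3 were lower in DUS2L cells, where 52.7% of all families were higher and 23.6% lower. In DUS1L cells 2 of 6 were higher, where 22.6% of all families were higher. The interaction was lower for 3 of 6, where it was lower for 18.2% of all families.

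tRNA-Leu-TAA was also the family whose share followed the serine sum most closely over the 8 libraries, with a Pearson r of 0.974 between log2 shares (percent plus 0.001), followed by tRNA-Leu-CAG at 0.894 and tRNA-His-GTG at 0.881. These values are descriptions over 8 libraries in 4 groups, which share the library totals. tRNA-Leu-TAA held 2.98% and 3.48% of sense counts in treated DUS2L cells, 1.95% and 2.66% in untreated DUS2L cells, 2.08% and 2.08% in treated DUS1L cells, and 0.236% and 0.665% in untreated DUS1L cells. Like the serine sum, it was lowest in the untreated DUS1L libraries.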

How the data were processed

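Members and gene lists were chosen with earlier results of these data known. Per the submitters' processing notes, reads were aligned with STAR 2.7.0f and the build was hg38. For molecular barcodes, multiply mapping reads and filters, the handling was not given in the sources used here. Deposited site files give whole-number counts of crosslinks per nucleotide of each tRNA or rRNA reference, and the authors' deposited peak files give a score per peak, which here equals the summed site counts.

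Sense-strand counts were added by family, by reference and by position. Shares were taken over all sense counts of a library. A feature entered a test if its counts in the fit's libraries summed to 10 or more, and edgeR 4.0.16 was used (glmQLFit and glmQLFTest, library size set to the total sense count, R 4.3.3) and p-values were adjusted by Benjamini and Hochberg over all features at a threshold of 0.05. The treatment comparisons used the 4 libraries of one enzyme, and those between enzymes and the interaction used all 8. The fit recovered known changes when tested on simulated data. Those data had a fixed spread, the same shares in every library apart from the set changes, and no upper range of site counts. They therefore do not measure the error rate of the tests here. Single shares were compared with exact permutation tests, and intervals are exact 95% intervals. A group at 0 was given a floor of 3 counts over the group. Alternatives were TMM factors, DESeq2 1.42.0, other count minimums, leaving out sites above 500 counts, tRNA families alone, a replicate block, 1 fit of all libraries and leaving out each library. Fits by reference were added after the isoacceptor values were seen. The text names all 4 isoacceptors, the references, the 3 positions with the largest mean share per isoacceptor and enzyme in treated libraries, and the leucine and selenocysteine families. Position 2, positions 13 to 21, 31 and 50 and position 25 of tRNA-Ser-GCT were chosen after their values were seen. Replicates of a group differed by more than sampling noise, with chi-square per degree of freedom between 53.9 and 285 over families. Depth ranged from 7369 to 824657 sense counts, so that 3 counts are 0.0407% of the smallest library and 0.000364% of the largest. Chromosome positions are those of RefSeq.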

Additional observations from a re-analysis of the deposited data

Results flagged for a closer look

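The 5-ClUrd difference of tRNA-Ser-TGA was different between the enzymes by a log2 value of -2.96 ± 0.85 (interaction of enzyme and treatment in edgeR over 8 libraries, adjusted p = 0.0318, with adjusted p between 9.97e-06 and 0.118 over the alternatives). tRNA-Ser-TGA was lower with 5-ClUrd in 2 of 2 treated DUS2L libraries and higher in 2 of 2 treated DUS1L libraries. Its value lay between -4.48 and -2.17 under all alternatives tried. The untreated DUS1L libraries hold 345 and 79 counts of this isoacceptor, and the part of that depth in the difference was not tested.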

How the results depend on the processing

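Of the 120 counts of calls recomputed under an alternative, 73 stayed within 1.5 times the reported count and 47 moved. The median log2 difference of all families was 0.86, 0.21 and 0.11 in DUS2L cells with library totals, TMM factors and DESeq2, and 1.35, 0.32 and 0.24 in DUS1L cells. The cause was not tested unless stated. Serine isoacceptors called in DUS1L cells numbered 1 without sites above 500 counts and 4 in 1 fit of all libraries, and 0 were called in DUS2L cells in that fit. For the interaction, TMM factors called 4, DESeq2 called 3, and both the data without sites above 500 counts and tRNA families alone called 2. Counts over all families are not given for these isoacceptor calls, so they show only the dependence on the processing. Serine positions called in DUS1L cells numbered 59 with TMM factors, 34 with DESeq2 and 200 with each reference on its own, which tests more features. In DUS2L cells they numbered 28 with a minimum of 1 count and 38 with a minimum of 50 counts, and between the treated enzymes 118 with each reference on its own. Serine references called numbered 5 with TMM factors, 3 with DESeq2 and 0 without sites above 500 counts in DUS1L cells, 7 with TMM factors and 7 with DESeq2 in DUS2L cells, and 10 with DESeq2 between the treated enzymes.

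The replicate numbers pair the libraries in number only, with correlations of same-numbered deviations of 0.212 in DUS2L cells and 0.103 in DUS1L cells over 2 pairs each. The fit with the replicate block called 3 serine isoacceptors in DUS1L cells and 29 serine positions in DUS2L cells. With the block, tRNA-Ser-GCT at position 32 had -0.00678 in DUS2L cells, and tRNA-Ser-TGA at position 32 had -0.0339 between the treated enzymes.

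Leaving out 1 library gave 0 to 3 called isoacceptors in DUS2L cells, 0 to 4 in DUS1L cells, 0 to 0 between the treated enzymes and 0 to 4 for the interaction. Positions called ranged from 0 to 48 in DUS2L cells, from 4 to 109 in DUS1L cells and from 25 to 44 between the treated enzymes. References called ranged from 3 to 13 in DUS2L cells, from 0 to 17 in DUS1L cells and from 4 to 6 between the treated enzymes. Where leaving out a library turned a direction, the log2 value ranged from -0.13 to 0.15 for tRNA-Ser-CGA, from -0.45 to 0.22 for tRNA-Ser-TGA-2-1, from -1.73 to 0.32 for position 32 of tRNA-Ser-AGA and from -0.61 to 0.59 for position 32 of tRNA-Ser-GCT in DUS2L cells. In DUS1L cells it ranged from -0.11 to 2.68 for position 67 of tRNA-Ser-CGA and from -0.18 to 3.89 for position 26 of tRNA-Ser-TGA. Between the treated enzymes it ranged from -0.13 to 0.36 for tRNA-Ser-GCT, from -1.75 to 0.31 for position 32 of tRNA-Ser-AGA, from -0.88 to 0.32, -0.42 to 0.78 and -0.66 to 0.21 for positions 32, 35 and 67 of tRNA-Ser-GCT, and from -0.24 to 0.24 for position 32 of tRNA-Ser-TGA. The share of serine counts in a region changed with 5-ClUrd by -1.32 to 1.04 points for positions 1 to 9 and -22.4 to 8.06 points for positions 10 to 26 in DUS1L cells, and by -0.55 to 6.19 points for positions 58 to 74 in DUS2L cells. With each site counted once, positions 1 to 9 changed by 3.54 points in DUS1L cells, and without sites above 500 counts positions 10 to 26 changed by 0.553 points.

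Other reversals were of values that did not pass the test in one setting or both. In DUS2L cells tRNA-Ser-CGA was -0.63 with TMM factors, -0.73 with DESeq2, -0.14 without sites above 500 counts and -0.19 with tRNA families alone. With TMM factors in DUS2L cells, position 32 of tRNA-Ser-AGA was 0.37, position 26 of tRNA-Ser-CGA 0.0915, and positions 26 and 67 of tRNA-Ser-TGA 0.31 and 0.15, while tRNA-Ser-CGA-1-1 was -0.49 and tRNA-Ser-TGA-4-1 -0.86. With DESeq2 there, position 32 of tRNA-Ser-AGA was 0.0706, position 26 of tRNA-Ser-TGA 0.0793, tRNA-Ser-CGA-1-1 -0.59, tRNA-Ser-CGA-4-1 -0.0872, tRNA-Ser-TGA-3-1 -0.013 and tRNA-Ser-TGA-4-1 -0.95. Without sites above 500 counts there, position 32 of tRNA-Ser-GCT was -0.34, position 25 of tRNA-Ser-CGA -1.05 and tRNA-Ser-TGA-2-1 1.00. In DUS1L cells with TMM factors, position 67 of tRNA-Ser-CGA was -0.14 and positions 26 and 67 of tRNA-Ser-TGA were -0.19 and -0.34, and position 67 of tRNA-Ser-TGA was -0.17 with DESeq2. Between the treated enzymes, tRNA-Ser-GCT was -0.32 and tRNA-Ser-TGA -0.0405 with TMM factors, and tRNA-Ser-GCT was -0.15 without sites above 500 counts, where its position 26 was -1.60. Position 32 of tRNA-Ser-AGA was 0.0752 with TMM factors and 1.54 with DESeq2, and positions 32 and 67 of tRNA-Ser-GCT were 0.28 and 0.17 with TMM factors and 1.79 and 1.80 with DESeq2.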
